A study of Rattus norvegicus with 9 samples.

Results

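Adrenergic receptors are the proteins through which noradrenaline and adrenaline act on a vessel, and transcripts of 8 of their genes were followed in the superior mesenteric artery (SMA) of the rat. The 8 genes (Adra1a, Adra1b, Adra1d, Adra2a, Adra2b, Adra2c, Adrb1 and Adrb3) were taken by symbol from a table of 37203 gene symbols. Libraries came from 8-week-old Sprague-Dawley rats in 3 groups of 3, namely normal rats, ischemia of 1 h and ischemia of 4 h. Ischemia here means blood loss under pentobarbital through a catheter in a femoral artery, with the time counted from the point at which the model had been set up. The sources used here do not say whether normal rats were anaesthetized or catheterized, and a piece of SMA can hold nerve and fat beside the muscular wall.

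Noradrenaline is released by sympathetic nerve endings in the outer wall of the artery. Alpha-1 receptors on smooth muscle couple to Gq proteins and raise calcium, which contracts the vessel. Alpha-2 receptors couple to Gi proteins and lower cyclic AMP, and on sympathetic neurons they restrain the release of noradrenaline. Beta receptors couple to Gs proteins and raise cyclic AMP, Adrb1 being best known from the heart and Adrb3 from fat cells. Blood loss activates the sympathetic nerves, so the receptors that read this signal were compared between the stages, and with the sympathetic neuron content of each library.

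The receptors fell into 4 patterns over the 9 libraries. Adra1a and Adra1d were lowest in the 2 libraries with the least smooth muscle myosin, and no difference between groups passed the correction over all genes. Adra2a, Adra2b and Adra2c were highest in the 3 libraries with most Dbh, the transcript of the enzyme that makes noradrenaline. These were replicates 1 and 3 at 1 h and replicate 3 at 4 h. No normal library was among them, so high Dbh and ischemia cannot be fully told apart. Adrb1 was at 1.60 CPM or more in all 6 ischemic libraries and at 0.657 CPM or less in all 3 normal ones. Adrb3 was highest in the libraries with most transcripts of the fat cell hormone Adipoq. CPM is the count scaled to the size of its library, with sizes adjusted by the TMM method.

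Total counts per library ran from 13114273 to 15504240, and 1 CPM stood for 12.06 to 17.86 counts after scaling. A count of 0 allows a level of up to 0.168 to 0.249 CPM, taking 3 counts per library as the limit, for counting error only. The labelled tissue was borne out by Myh11, a smooth muscle myosin, at 4693 CPM or more in each library. Summed levels of 22 further sympathetic neuron markers ran from 45.8 to 620 CPM in normal rats, from 907 to 8516 CPM at 1 h and from 58.6 to 8279 CPM at 4 h. Those of 14 smooth muscle markers ran from 12780 to 55920, from 14710 to 53250 and from 27610 to 77080 CPM, and those of 12 adipocyte markers from 473 to 2648, from 1048 to 2383 and from 492 to 1268 CPM. Libraries of one group were therefore unequal in their make-up, and in whole tissue fewer cells of a type and less RNA per cell cannot be told apart. Levels are compared between libraries for each gene and not between genes, since no transcript length for this table was at hand.

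Dbh was taken as the measure of sympathetic neuron content. It was at 116, 0 and 66.5 CPM in normal replicates 1 to 3, while the 3 replicates had 1854, 226 and 1866 CPM at 1 h and 0.661, 0.249 and 2041 CPM at 4 h. The libraries thus fell into 3 ranges, with replicates 1 and 3 at 1 h and replicate 3 at 4 h on top, and with normal replicate 2 and replicates 1 and 2 at 4 h near 0. The 3 libraries rich in Dbh were not richest in smooth muscle, with Myh11 at 8723, 4826 and 9082 CPM. The other libraries were at 17090 CPM or more, except normal replicate 1 at 4693 CPM. Because the Dbh levels fall into separate ranges, no pooled correlation with Dbh is given. Adrenal chromaffin cells also make Dbh, and 5 chromaffin markers summed to 688 to 814 CPM in the 3 rich libraries and to 3.72 to 75.8 CPM in the others. Pnmt, the transcript of the enzyme that makes adrenaline, did not follow Dbh among the ischemic libraries, on 10 to 22 counts each. The rich libraries had 0.669, 0.860 and 1.45 CPM of Pnmt. The remaining ischemic ones had 1.27 CPM (1 h, replicate 2), 0.992 CPM and 1.49 CPM (4 h, replicates 1 and 2). Normal libraries had 0.224 CPM or less. The part of chromaffin cells was not tested. A slope on log2(CPM + 1) of Dbh was fitted instead for every gene, in one edgeR model that also holds the group.

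**Figure D1:**
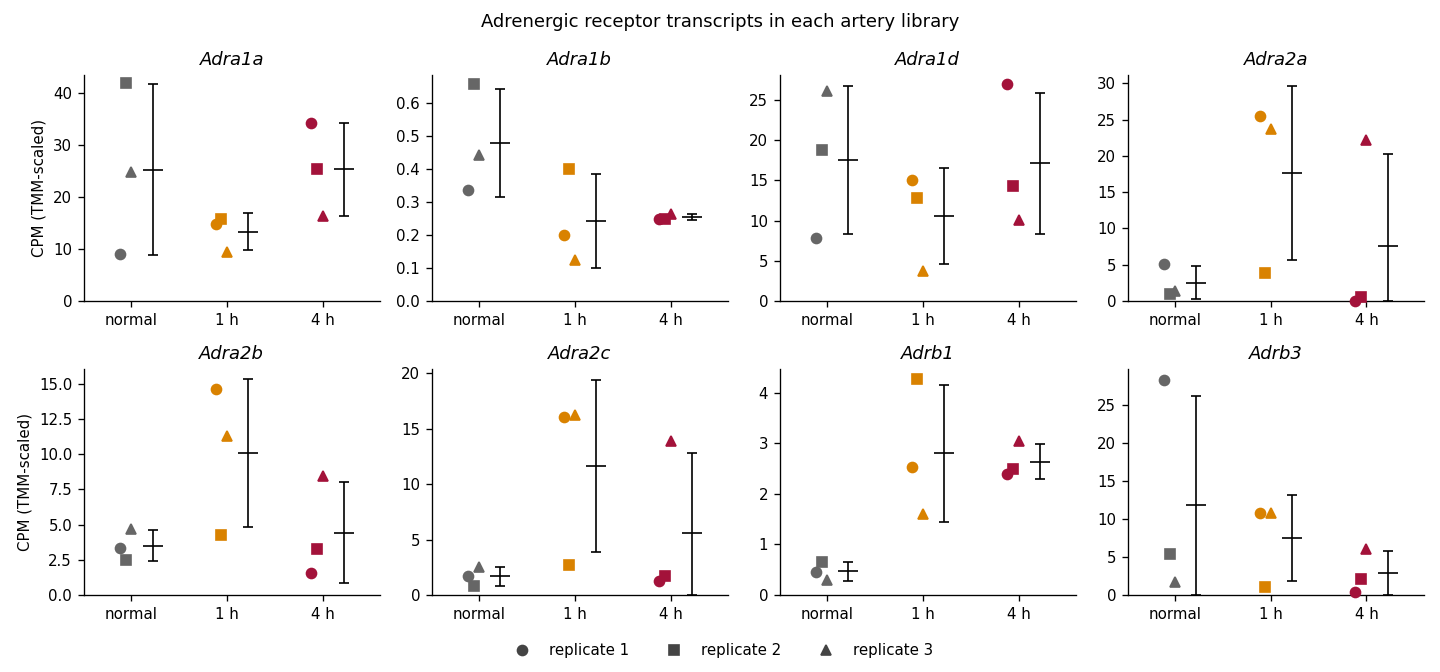
TMM-scaled CPM of each receptor (vertical axes, each from 0) in the 3 normal libraries and the 3 libraries at 1 h and at 4 h of ischemia. Points are single libraries, with shape giving the replicate number, and bars are the mean and SD over 3 libraries, drawn no lower than 0. Adrb1 does not overlap between normal and ischemic libraries, whereas the alpha-2 receptors are high in replicates 1 and 3 at 1 h and in replicate 3 at 4 h.

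Adra1a, the alpha-1A receptor of contracting arteries, was at 8.96, 41.9 and 24.9 CPM in normal rats, at 14.9, 15.8 and 9.34 CPM at 1 h, and at 34.3, 25.5 and 16.4 CPM at 4 h. Normal libraries spanned the levels at 1 h, whereas the 3 libraries at 4 h lay above the 3 at 1 h by a narrow margin. Mean levels were 25.2 ± 16.5 CPM in normal rats, 13.3 ± 3.50 CPM at 1 h and 25.4 ± 8.94 CPM at 4 h (SD, n = 3 each). The log2 fold change was -0.92 at 1 h against normal (SE 0.53, edgeR adjusted p = 0.362), 0.01 at 4 h against normal (SE 0.52, adjusted p = 0.996) and 0.93 at 4 h against 1 h (SE 0.53, adjusted p = 0.856). None of these differences passed the test, including that between 4 h and 1 h, where the groups did not overlap.

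Adra1d, the alpha-1D receptor of large conducting arteries, was at 7.84, 18.8 and 26.1 CPM in normal rats, at 15.1, 12.8 and 3.75 CPM at 1 h, and at 27.0, 14.3 and 10.1 CPM at 4 h. All groups overlapped. Its log2 fold changes were -0.74 at 1 h (SE 0.62, adjusted p = 0.524), -0.04 at 4 h (SE 0.62, adjusted p = 0.988) and 0.70 between 4 h and 1 h (SE 0.62, adjusted p = 0.856). Adra1b, the alpha-1B receptor, had between 2 and 9 counts in a library and did not pass the filter on low counts. It was at 0.336 to 0.657 CPM in normal rats, at 0.123 to 0.401 CPM at 1 h and at 0.248 to 0.264 CPM at 4 h, with 3 counts or fewer in 4 libraries. The normal libraries lay above those at 4 h, on these few counts, as for 10.8% of the genes tested. When no filter was used its log2 fold change was -0.95 at 1 h (SE 0.72, edgeR adjusted p = 0.564) and -0.88 at 4 h (SE 0.73, adjusted p = 0.696), so a change was not detectable at this depth.

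The make-up of the alpha-1 receptors was then compared within each library, which does not depend on scaling. Adra1a held 52.3%, 68.3% and 48.4% of the summed alpha-1 counts in normal replicates 1 to 3, 49.4%, 54.5% and 70.7% at 1 h, and 55.8%, 63.6% and 61.3% at 4 h. Adra1d held nearly all of the rest, from 28.4% (Wilson 95% interval 22.8 to 34.7%) in replicate 3 at 1 h to 50.8% (47.1 to 54.5%) in normal replicate 3. Adra1b held from 0.403% to 1.96%. The share of Adra1a was 56.3 ± 10.5% in normal rats, 58.2 ± 11.1% at 1 h and 60.2 ± 4.01% at 4 h (SD, n = 3 each). It differed by 1.92 percentage points at 1 h (two-sided exact permutation p = 0.7, n = 3 against 3) and by 3.93 points at 4 h (exact p = 0.6). The smallest p that 3 libraries against 3 can reach is 0.10. Shares of counts carry the transcript length, so they show how the make-up varied and not which receptor was more abundant.

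**Figure D2:**
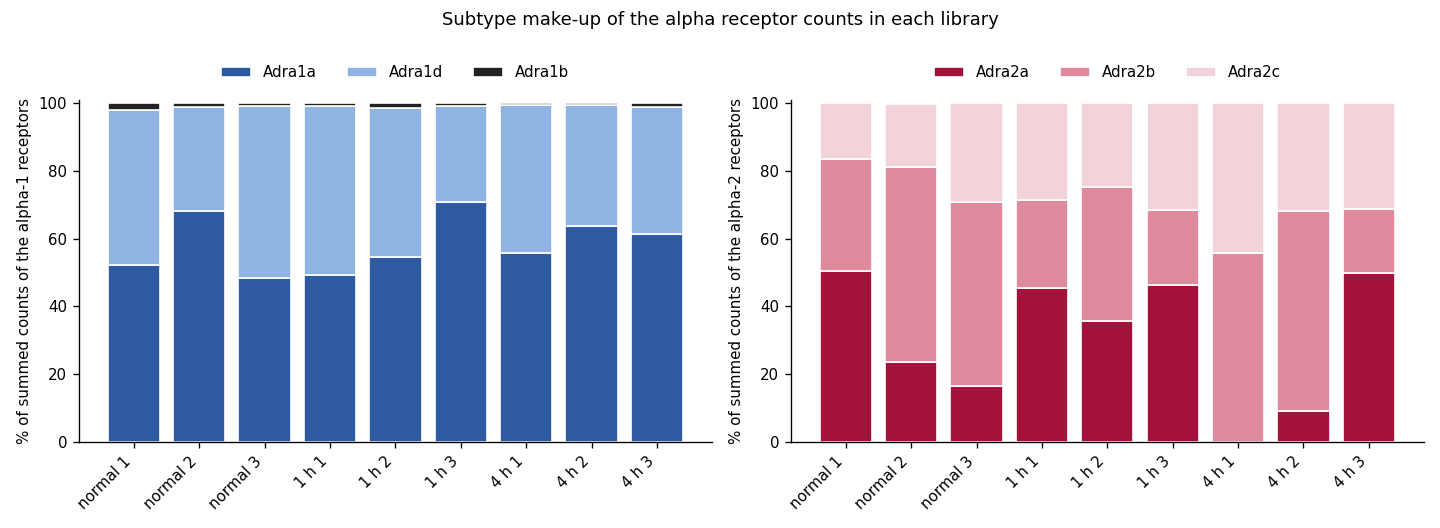
Share (%) of each subtype in the summed counts of the 3 alpha-1 receptor genes (left) and the 3 alpha-2 receptor genes (right) in each of the 9 libraries, named by group and replicate. Adra1a runs from 48.4% to 70.7% with no order by group, and Adra2a runs from 0% in replicate 1 at 4 h to 50.5% in normal replicate 1.

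The alpha-1 receptors were next set against the smooth muscle content. In the same library, Adra1a had 19.1, 21.8 and 14.1 counts per 10000 counts of Myh11 in normal rats. The 3 libraries at 1 h had 17.1, 9.23 and 19.3, and those of 4 h 14.6, 13.5 and 18.1. This ratio was 18.3 ± 3.91 in normal rats, 15.2 ± 5.29 at 1 h and 15.4 ± 2.40 at 4 h (SD, n = 3 each), and groups overlapped. For Adra1d it was 13.8 ± 3.58 in normal rats, 10.8 ± 5.59 at 1 h and 10.1 ± 2.16 at 4 h. Fitted within groups on the mean log2 CPM of 14 smooth muscle markers, the slope was 0.77 for Adra1a (SE 0.17, edgeR adjusted p = 0.0472) and 0.88 for Adra1d (SE 0.21, adjusted p = 0.0597), where 5.13% of genes had an adjusted p under 0.05. Leaving out one library moved the slope of Adra1a between 0.55 and 0.91 and its adjusted p between 0.0395 and 0.162, and the call was lost in 7 of the 9 fits, the lowest slope being without normal replicate 1. Myh11 is among those markers. On Dbh the slopes were negative, at -0.12 for Adra1a (SE 0.05, adjusted p = 0.152) and -0.09 for Adra1d (SE 0.07, adjusted p = 0.475). The smooth muscle and adipocyte slopes and the ratios were chosen after the data were seen.

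Adra2a, the alpha-2A receptor and the main presynaptic brake on noradrenaline release, was at 5.15, 1.02 and 1.40 CPM in normal rats, at 25.5, 3.88 and 23.7 CPM at 1 h, and at 0, 0.497 and 22.2 CPM at 4 h. The 3 high libraries were those rich in Dbh, and replicate 2 at 1 h lay within the range of normal rats. Replicate 1 at 4 h had 0 counts, which allows up to 0.248 CPM. The log2 fold change of Adra2a was 2.79 at 1 h (SE 1.71, edgeR adjusted p = 0.386) and 1.57 at 4 h (SE 1.65, adjusted p = 0.709). Without replicate 3 at 4 h the latter was -3.31.

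Adra2c, the alpha-2C receptor, which also restrains noradrenaline release, was at 1.68, 0.803 and 2.51 CPM in normal rats, at 16.1, 2.67 and 16.2 CPM at 1 h, and at 1.24, 1.74 and 13.9 CPM at 4 h. Libraries at 1 h all lay above the normal ones, replicate 2 at 1 h by a narrow margin. Its log2 fold change was 2.80 at 1 h (SE 1.07, adjusted p = 0.280) and 1.76 at 4 h (SE 1.04, adjusted p = 0.526), the latter being -0.16 without replicate 3 at 4 h. Adra2b, the alpha-2B receptor, known for a vasoconstrictor role in the vessel wall, was at 3.36, 2.48 and 4.65 CPM in normal rats, at 14.6, 4.28 and 11.3 CPM at 1 h, and at 1.57, 3.23 and 8.45 CPM at 4 h. Its range was narrower than that of Adra2a, and all groups overlapped. Its log2 fold change was 1.52 at 1 h (SE 0.67, adjusted p = 0.300) and 0.34 at 4 h (SE 0.66, adjusted p = 0.860), the latter being -0.54 without replicate 3 at 4 h.

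Within groups, all 3 alpha-2 receptors had a positive slope on Dbh. The level of Adra2a rose by 0.53 on the log2 scale per unit of log2(CPM + 1) of Dbh (SE 0.10, edgeR adjusted p = 0.0139) and that of Adra2c by 0.31 (SE 0.06, adjusted p = 0.0147), while the slope of Adra2b was 0.17 (SE 0.05, adjusted p = 0.0813). Thus 2 of the 7 receptors tested were called, where 8.19% of all genes were (7.84% with a positive and 0.349% with a negative slope). At an unadjusted p under 0.05 there were 4, where 25% of genes were. With the mean level of the neuron markers in place of Dbh, 3 receptors were called, Adra2b now among them, where 11.2% of genes were. With a pseudocount of 0.1 in place of 1 for Dbh, only Adra2c was called (Adra2a adjusted p = 0.054), and with a replicate block 0 were called in edgeR, with 1 at an unadjusted p under 0.05 (adjusted p = 0.344 for Adra2a and 0.535 for Adra2c). These calls rested on single libraries. Without replicate 3 at 4 h, 0 receptors were called in edgeR, 2 had an unadjusted p under 0.05 and 1.35% of genes were called, with slopes of 0.37 for Adra2a (adjusted p = 0.491) and 0.32 for Adra2c (adjusted p = 0.424). Without replicate 1 at 4 h the adjusted p of Adra2c was 0.0719, with 4.72% of genes called. With Dbh in the fit, the log2 fold change at 1 h was -0.17 for Adra2a (SE 0.93), 0.53 for Adra2b (SE 0.53) and 1.02 for Adra2c (SE 0.63), against 2.79, 1.52 and 2.80 without it. On the adipocyte score the slopes were 2.10 for Adra2a (SE 0.64, adjusted p = 0.0955), 0.72 for Adra2b (SE 0.30, adjusted p = 0.173) and 1.23 for Adra2c (SE 0.48, adjusted p = 0.151), and the part of fat in these levels was not tested.

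The ratio of each alpha-2 receptor to Dbh was not constant over libraries. Per 1000 counts of Dbh, Adra2a had 44.4 and 21.1 counts in normal replicates 1 and 3, 13.7, 17.2 and 12.7 at 1 h, and 10.9 in replicate 3 at 4 h, the remaining libraries having fewer than 100 counts of Dbh. Adra2b had 29.0 and 70.0 counts in those normal replicates, and 7.90, 19.0 and 6.06 at 1 h. Within the alpha-2 counts, Adra2a held 45.3%, 46.3% and 49.8% in the 3 libraries rich in Dbh. It held 23.7% in normal replicate 2 (Wilson 95% interval 14.7 to 36.0%) and 0% and 9.09% in replicates 1 and 2 at 4 h (intervals 0 to 10.2% and 4.23 to 18.4%). In these 3 libraries, which had the least Dbh, Adra2b held 57.6%, 55.9% and 59.1%. The share of Adra2a did not follow Dbh throughout, since among normal rats it was 50.5% in replicate 1, with 116 CPM of Dbh, and 16.4% in replicate 3, with 66.5 CPM. Alpha-2 receptors together took 65.1%, 79.5% and 62.4% of all alpha receptor counts in the libraries rich in Dbh and from 4.37% to 37.3% in the other 6.

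**Figure D3:**
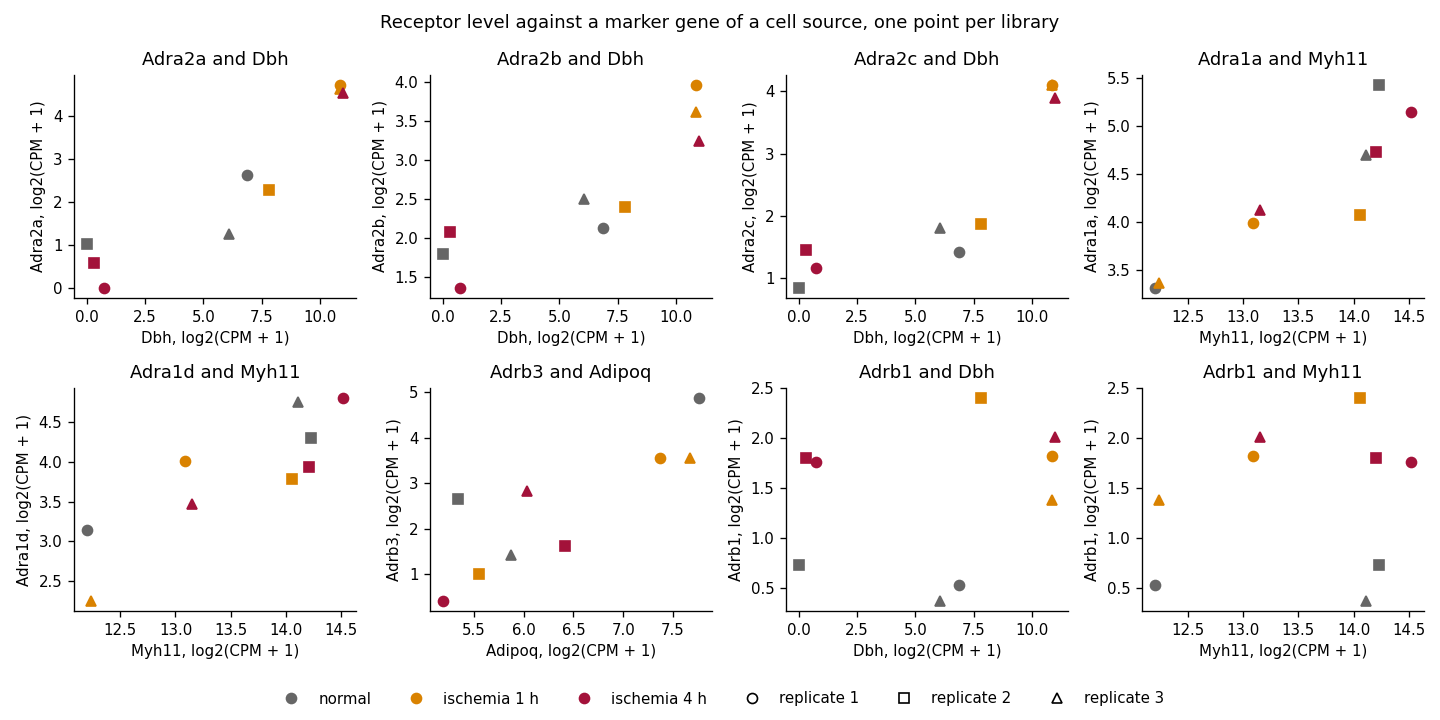
Level of a receptor (vertical axis, log2(CPM + 1)) against that of a marker gene in the same library (horizontal axis, log2(CPM + 1)), one point per library, with colour for the group and shape for the replicate. The alpha-2 receptors are highest in the 3 libraries with Dbh at 1854 CPM or more, Adra1a and Adra1d are low where Myh11 is low, and Adrb1 separates normal from ischemic libraries along neither marker.

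Adrb1, the beta-1 receptor, was at 0.448, 0.657 and 0.295 CPM in normal rats, at 2.54, 4.28 and 1.60 CPM at 1 h, and at 2.40, 2.49 and 3.04 CPM at 4 h. These levels rest on 8, 9 and 4 counts in normal rats, on 38, 64 and 26 counts at 1 h, and on 29, 30 and 46 counts at 4 h. All 6 ischemic libraries lay above all 3 normal ones, as did 3.99% of the genes tested. The level that the filter asks for was reached in 1 of the 3 normal libraries and in all 6 ischemic ones, so Adrb1 entered the tests through the groups in which it was higher. Mean levels were 0.467 ± 0.181 CPM in normal rats, 2.81 ± 1.36 CPM at 1 h and 2.64 ± 0.346 CPM at 4 h (SD, n = 3 each).

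The log2 fold change of Adrb1 was 2.57 at 1 h (SE 0.50, unadjusted p = 0.00078, edgeR adjusted p = 0.145) and 2.48 at 4 h (SE 0.50, unadjusted p = 0.000968, adjusted p = 0.102), a 5.92-fold and a 5.58-fold higher level. It thus failed the correction over 15482 genes in both comparisons. DESeq2 called it, with an adjusted p of 0.000954 at 1 h and 0.00143 at 4 h, in a test that called 4.03% and 3.38% of genes. When both ischemia groups were set against normal rats in one contrast, added after the data were seen, the log2 fold change was 2.52 (SE 0.46, edgeR adjusted p = 0.0641), where 0.426% of genes were called. The difference between 4 h and 1 h was -0.09 (SE 0.46, adjusted p = 0.956).

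For Adrb1 no slope on a measure of cell content passed the test. The slope was -0.02 on Dbh (SE 0.05, edgeR adjusted p = 0.808), 0.24 on the smooth muscle score (SE 0.26, adjusted p = 0.553) and -0.18 on the adipocyte score (SE 0.25, adjusted p = 0.659). With these measures in the fit one at a time, the log2 fold change stayed between 2.55 and 2.77 at 1 h and between 2.36 and 2.58 at 4 h. Leaving out one library kept it between 2.13 and 2.88 at 1 h and between 2.25 and 2.81 at 4 h. The edgeR adjusted p of Adrb1 then ran from 0.096 to 0.413 at 1 h and from 0.116 to 0.29 at 4 h. With no filter it was 0.223 at 1 h and 0.167 at 4 h, so Adrb1 was called in none of these fits. The 9 markers of skeletal and heart muscle summed to 27.4 to 174 CPM in normal rats, 34.8 to 149 CPM at 1 h and 56.0 to 205 CPM at 4 h. No slope was fitted on these markers. Their part and that of other cell types in the level of Adrb1 were not tested.

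Adrb3, the beta-3 receptor, which drives fat breakdown and heat production in adipocytes, was at 28.3, 5.33 and 1.70 CPM in normal rats, at 10.8, 1.00 and 10.8 CPM at 1 h, and at 0.331, 2.07 and 6.07 CPM at 4 h. Normal replicate 1 stood highest, and the groups overlapped. The log2 fold change was -0.65 at 1 h (SE 1.25, adjusted p = 0.797), which was 1.09 without normal replicate 1, and -2.05 at 4 h (SE 1.30, adjusted p = 0.552), which was -0.31 without that library. Adipoq was at 216, 39.5 and 57.6 CPM in normal rats, at 165, 45.9 and 202 CPM at 1 h, and at 35.5, 84.1 and 64.4 CPM at 4 h. Fitted within groups on the mean log2 CPM of the adipocyte markers, Adrb3 had a slope of 2.04 (SE 0.25, edgeR adjusted p = 0.0412), where 0.737% of genes were called, and the slope lay between 1.91 and 2.17 when one library was left out. The adjusted p then ran from 0.0106 to 0.123, and the call was lost in 8 of those 9 fits. On the smooth muscle score Adrb3 had a negative slope of -1.82 (SE 0.40, adjusted p = 0.0444), a call that was also lost in 8 of 9 fits. With the adipocyte score in the fit, Adrb3 was lower at 4 h than in normal rats (log2 fold change -2.86, SE 0.48, edgeR adjusted p = 0.0498). That fit called 0.775% of genes at 4 h. At 1 h it gave Adrb3 a larger change of -3.29 that was not called (SE 0.55, adjusted p = 0.102). Between 4 h and 1 h the change was 0.43 (SE 0.49). Adrb3 was not called with the other measures in the fit. Its value at 4 h was -2.23 with Dbh (adjusted p = 0.365), -2.48 with the neuron score (adjusted p = 0.282) and -0.89 with the smooth muscle score (adjusted p = 0.536). Per 1000 counts of Adipoq it had 131, 135 and 29.5 counts in normal rats, with 65.3, 21.9 and 53.1 counts at 1 h and 9.32, 24.7 and 94.4 counts at 4 h, so on this scale too the groups overlapped. Ucp1, a marker of brown fat and one of the markers in the adipocyte score, was at 0 CPM in all 3 normal libraries. It was at 85.1, 2.83 and 36.6 CPM in the libraries rich in Dbh. The score was 5.11 in normal replicate 1 and 6.18, 5.83 and 5.37 in those libraries, although Adipoq was highest in normal replicate 1. The part of Ucp1 in the fits with this score and in the level of Adrb3 was not tested.

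**Figure D4:**
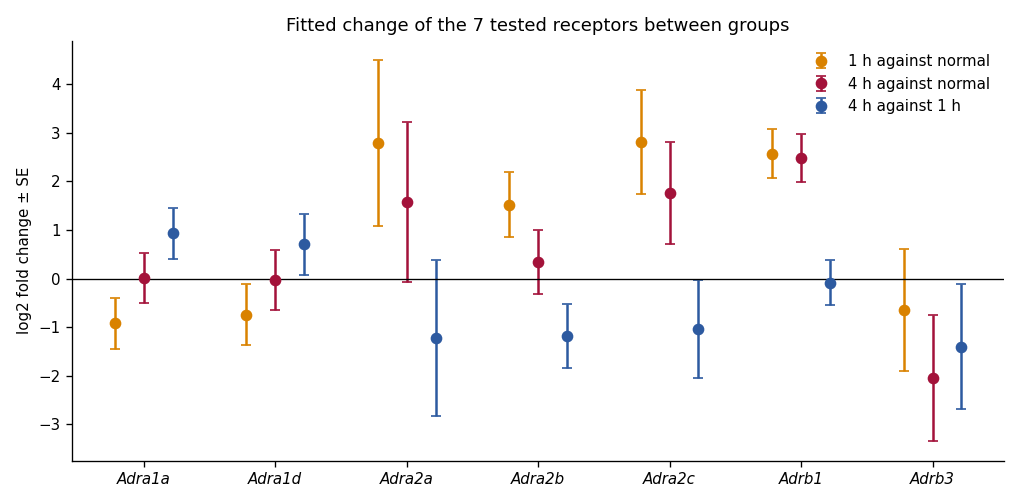
Log2 fold change of each of the 7 receptors tested (points, with bars for the SE from edgeR) for 1 h against normal, 4 h against normal and 4 h against 1 h. Adrb1 lies 2.57 and 2.48 above normal with an SE of 0.50 for both, the alpha-2 receptors have bars of 0.66 to 1.71, and no point passed the adjusted threshold.

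Over the 8 genes, 7 passed the filter on low counts, Adra1b being the one that did not. At 1 h against normal 0 of the 7 were called in edgeR (adjusted p under 0.05 and fold change over 1.5), as were 0.0581% of all genes, and DESeq2 called 1. At an unadjusted p under 0.05 there were 2, Adra2c and Adrb1, where 16.7% of genes were. Groups did not overlap for 2 receptors, both higher, against 12.8% of genes higher. At 4 h against normal 0 were called in edgeR, where 0.0904% of genes were, DESeq2 called 1, and only Adrb1 had an unadjusted p under 0.05, where 12.4% of genes did. Between 4 h and 1 h (the groups of 1 receptor, Adra1a, not overlapping, against 3.20% of genes higher) 0 were called by edgeR or DESeq2 and 0 had an unadjusted p under 0.05 in either, where 2.58% of genes did in edgeR. DESeq2 gave no p for Adra2a and Adra2c. The median log2 fold change of the 7 was 1.5 at 1 h and 0.34 at 4 h, against -0.0076 and 0.027 for all genes tested, and both comparisons use the same normal libraries.

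Genes around the receptors were examined next, as 6 lists covering noradrenaline handling, receptor kinases and arrestins, G protein alpha subunits, effector enzymes, RGS proteins and receptors for the cotransmitters neuropeptide Y and ATP. In edgeR 0 genes of these lists were called in any comparison, with at most 4 genes of a list at an unadjusted p under 0.05 in one direction. DESeq2 called 3 at 1 h (Pnmt, Rgs1 and Rgs9) and 5 at 4 h (Pnmt and Rgs1 higher, P2ry14, Slc22a3 and Adcy4 lower) of 73 list genes with an adjusted p, against 4.03% and 3.38% of all genes. At an unadjusted p under 0.05 edgeR had 12 of 81 list genes at 1 h and 8 at 4 h, against 16.7% and 12.4% of all genes. For noradrenaline handling, 15 of 15 genes were tested, and the median log2 fold change was 3.6 at 1 h and 2.6 at 4 h. The sympathetic neuron markers had medians of 4.1 and 3, and the chromaffin markers 3.7 and 2.8. These lists are not separate, since Pnmt is in both noradrenaline handling and the chromaffin markers. At an unadjusted p under 0.05 there were 2 higher genes in both comparisons (Pnmt and Gch1). There was also 1 lower gene in each comparison, which at 4 h was Slc22a3. Pnmt, which turns noradrenaline into adrenaline, was at 0.0990 ± 0.114 CPM in normal rats, 0.933 ± 0.307 CPM at 1 h and 1.31 ± 0.278 CPM at 4 h (SD, n = 3 each), on 0 to 4 counts in normal libraries and 10 to 22 in ischemic ones. None of the 3 normal libraries reached the level of the filter, which Pnmt passed through the ischemic groups, with a log2 fold change of 3.05 at 1 h (SE 0.82, adjusted p = 0.216) and 3.54 at 4 h (SE 0.82, adjusted p = 0.151). Gch1, which makes the cofactor of tyrosine hydroxylase, reached 29.2, 9.02 and 28.1 CPM at 1 h, and 26.7 CPM in the third library of 4 h, against 0.744 to 2.32 CPM elsewhere. Slc22a3, a transporter that removes noradrenaline outside neurons, was at 18.4 ± 4.77 CPM in normal rats and 8.11 ± 2.15 CPM at 4 h (log2 fold change -1.18, SE 0.33, adjusted p = 0.207).

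Of the kinases and arrestins that switch receptors off, 9 symbols were searched and 7 were in the table and tested (2 kinases are listed there under their other symbols, Adrbk1 and Adrbk2), with medians of 0.0019 at 1 h and -0.13 at 4 h. Adrbk2, a receptor kinase, was at 119, 21.3 and 121 CPM at 1 h and at 7.44, 8.79 and 124 CPM at 4 h, against 4.96 to 11.5 CPM in normal rats, high in the same 3 libraries as Dbh. It was the only one of the list with an unadjusted p under 0.05 (1 h, log2 fold change 3.38, SE 1.19, adjusted p = 0.262). Grk5 and Arrb2 had log2 fold changes of -0.46 (SE 0.24) and -0.56 (SE 0.35) at 4 h, with adjusted p of 0.481 and 0.548 in edgeR.

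Among 11 G protein alpha subunits, the median was 0.59 at 1 h and 0.49 at 4 h. Gnao1, abundant in neurons, was at 266, 86.2 and 245 CPM at 1 h and 229 CPM in replicate 3 at 4 h, against 49.6 to 85.2 CPM in the other libraries. Gnas, the Gs subunit through which beta receptors act, was at 464, 467 and 520 CPM in normal rats, at 1710, 525 and 1430 CPM at 1 h, and at 611, 526 and 1470 CPM at 4 h. All its ischemic libraries lay above the normal ones, some narrowly, as for 3.99% of the genes tested. Its log2 fold change was 1.34 at 1 h (SE 0.53, adjusted p = 0.285) and 0.84 at 4 h (SE 0.52, adjusted p = 0.543). Gnai3, a Gi subunit, had 0.59 at 1 h (SE 0.26, adjusted p = 0.304).

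Of the effector enzymes 18 of 19 were tested, with medians of 0.32 at 1 h and 0.26 at 4 h. Plcb1, the phospholipase that alpha-1 receptors activate, was at 41.1 ± 3.59 CPM in normal rats, 57.7 ± 5.27 CPM at 1 h and 57.4 ± 9.71 CPM at 4 h, with log2 fold changes of 0.49 (SE 0.17, adjusted p = 0.266) and 0.48 (SE 0.17, adjusted p = 0.314). Its ischemic libraries all lay above the normal ones, as for 3.99% of the genes tested. Adcy4, an adenylyl cyclase, was at 43.9 ± 16 CPM in normal rats and 20.2 ± 1.84 CPM at 4 h (log2 fold change -1.12, SE 0.27, adjusted p = 0.162). Adcy2, another adenylyl cyclase, was at 34.5, 34.1 and 33.7 CPM in the 3 libraries rich in Dbh and at 4.48 CPM or less in the others.

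RGS proteins shorten signalling by G proteins, and 17 of 19 were tested, with medians of 0.53 at 1 h and 0.36 at 4 h and with 4 higher genes at 1 h and 2 at 4 h at an unadjusted p under 0.05 (16.7% and 12.4% of all genes). Rgs1 was at 0.504, 0.146 and 0.0739 CPM in normal rats, at 6.29, 3.81 and 7.07 CPM at 1 h, and at 0.827, 2.74 and 4.49 CPM at 4 h. None of the 3 normal libraries reached the level of the filter, and all ischemic libraries lay above them, as for 3.99% of the genes tested. The log2 fold change of Rgs1 was 4.47 at 1 h (SE 0.84, edgeR adjusted p = 0.138) and 3.38 at 4 h (SE 0.81, adjusted p = 0.160). Rgs2, which acts on Gq and so on alpha-1 signalling, had a log2 fold change of 1.38 at 4 h (SE 0.52, adjusted p = 0.334). Rgs9 and Rgs20 were highest in the libraries rich in Dbh, at 42.1 to 50.2 CPM and 6.89 to 7.93 CPM, against at most 5.62 and 5.28 CPM in the others.

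Of the cotransmitter receptors 13 of 14 were tested, with medians of -0.047 at 1 h and 0.011 at 4 h. Npy1r, the neuropeptide Y receptor of smooth muscle, was at 54.9, 300 and 203 CPM in normal rats, at 217, 423 and 102 CPM at 1 h, and at 739, 626 and 182 CPM at 4 h (log2 fold change 1.47 at 4 h, SE 0.77, adjusted p = 0.476). Npy2r and Npy4r were at 7.13 to 12.3 CPM and 13.7 to 23.1 CPM in the libraries rich in Dbh, and at 0.960 CPM or less and 3.34 CPM or less in the others. P2ry14, a nucleotide receptor, was at 5.0 ± 2.14 CPM in normal rats and 1.43 ± 0.872 CPM at 4 h (log2 fold change -1.80, SE 0.54, adjusted p = 0.232), and P2ry4, another one, was at 9.94 ± 2.08 and 6.73 ± 0.931 CPM in normal rats and at 1 h (log2 fold change -0.56, SE 0.25, adjusted p = 0.303).

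The genes most like each receptor were found by Pearson's r of log2 CPM over the 9 libraries, among 10438 named genes averaging at least 5 CPM. These values describe a search over many genes in the same libraries, and so carry no test. For Adrb1 they were Csrnp1 (r = 0.968, Spearman's rho = 0.85), Foxo3 (0.963, rho = 0.867) and Nfkbiz (0.958, rho = 0.817). For Adra2a they were Sez6 (0.991), Pde9a (0.991) and Lrrc16b (0.990), for Adra2b Kndc1 (0.975), Syt9 (0.973) and Atp6ap1 (0.972), and for Adra2c Lrrc3 (0.996), Cyp51 (0.991) and Scamp1 (0.990). For Adra1a they were Parp8 (0.983), Supt5h (0.974) and Esyt2 (0.963), and for Adra1d Wdr74 (0.973), Phtf2 (0.973) and Lmcd1 (0.972). For Adrb3 they were Cebpa (0.985), a transcription factor of fat cells, Slc36a2 (0.970), an amino acid transporter known from fat, and Atg4c (0.962). Cebpa was at 35.4, 10.9 and 2.81 CPM in normal rats, 23.4, 3.01 and 25.4 CPM at 1 h, and 1.16, 5.06 and 13.4 CPM at 4 h.

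Sequence before the transcription start is shown for Adrb1, whose level separated ischemic from normal libraries, and for Adra2b and Dbh, which were high in the same libraries. The sequences are the 250 bases before the start in RefSeq (assembly GRCr8), written 5′ to 3′ on the strand of the gene. The build behind the counts is not given in the sources used here. Of the 8 receptors 6 were in the promoter table. Capitals mark matches on either strand to TGACG, the core of a cyclic AMP response element, to the CCAAT box, to GGGCGG as the GC box, to TATAAA as the core of a TATA box, and to ACGTG as the core of a hypoxia response element.
Adrb1 promoter (GRCr8, chr1:265776853-265777102, plus strand): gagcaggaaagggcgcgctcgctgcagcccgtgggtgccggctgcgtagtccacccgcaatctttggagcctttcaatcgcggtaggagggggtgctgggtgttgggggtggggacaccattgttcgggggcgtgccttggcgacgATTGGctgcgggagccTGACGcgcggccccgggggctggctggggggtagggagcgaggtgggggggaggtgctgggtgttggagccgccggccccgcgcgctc
Adra2b promoter (GRCr8, chr3:135038231-135038480, plus strand): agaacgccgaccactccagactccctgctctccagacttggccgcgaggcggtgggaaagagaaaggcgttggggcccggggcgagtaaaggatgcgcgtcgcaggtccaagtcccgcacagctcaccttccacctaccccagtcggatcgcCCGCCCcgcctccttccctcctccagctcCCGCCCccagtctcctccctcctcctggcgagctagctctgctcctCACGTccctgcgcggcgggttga
Dbh promoter (GRCr8, chr3:30886078-30886327, plus strand): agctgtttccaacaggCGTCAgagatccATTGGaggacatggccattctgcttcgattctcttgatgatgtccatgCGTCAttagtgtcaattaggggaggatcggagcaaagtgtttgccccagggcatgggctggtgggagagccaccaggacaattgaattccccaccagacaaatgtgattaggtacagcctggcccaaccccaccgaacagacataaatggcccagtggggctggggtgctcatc

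The Adrb1 window was 72.0% G or C with 24 CpG dinucleotides and held 1 TGACG, starting 88 bases before the start site, and 1 CCAAT box on the other strand, starting 104 bases before it. The Adra2b window was 68.0% G or C with 22 CpG and held 2 GGGCGG and 1 ACGTG, all on the other strand. The Dbh window was 53.6% G or C with 5 CpG and held 2 TGACG and 1 CCAAT, all on the other strand. Of 33469 windows of this length, 18.2% held TGACG, 34.0% CCAAT, 30.5% GGGCGG, 12.9% TATAAA and 16.6% ACGTG. None of the 3 windows held TATAAA or the full element TGACGTCA, which 1.59% of windows held and which overlaps with TGACG. A match is a run of letters and not a measured site.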

How the data were processed

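Transcripts of 9 SMA libraries were counted by sequencing, 3 per group, and groups and replicate numbers follow the titles in the labels. The authors deposited raw counts per gene symbol. HISAT2 is named in the submitters' processing notes, while the counting program, genome build, annotation and use of strand are not given in the sources used here. The methods of the study describe arrays, but the whole-number table was analysed as sequencing counts. Nothing ties replicate numbers across groups to one animal, and p-values measure the spread between these libraries. Every pair of libraries differed beyond counting noise (the closest 2 libraries had a chi-square of 32.2 per degree of freedom).

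Of 37203 symbols, 15482 passed filterByExpr in edgeR 4.0.16 (R 4.3.3). Libraries were scaled by TMM (factors 0.814 to 1.22) and fitted with group as the only term (glmQLFit, glmQLFTest) over all 9 libraries. A gene was called at a Benjamini-Hochberg adjusted p under 0.05 over all genes with a fold change over 1.5, the thresholds of the study. SE was derived as the fitted change over the root of its F statistic. Slopes added log2(CPM + 1) of Dbh, or the mean log2 CPM (prior count 2) of a marker list, to the groups. Shares were compared by exact permutation. Intervals and limits cover counting error only. Alternatives were DESeq2 1.42.0, other scaling, no filter, fits of 2 groups, covariates, a replicate block and leaving out each library. Named genes were the receptors, Dbh and Myh11, up to 3 genes of each list with the smallest p at 1 h and at 4 h, and the 3 genes most like each receptor. A gene that this rule also names is not reported here. The members and lists were chosen with earlier results of these data known. Whether the replicate numbers pair the libraries could not be settled from the counts.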

Additional observations from a re-analysis of the deposited data

How the results depend on the processing

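Of 808 alternative values, 697 kept their direction and their side of the threshold, 45 changed direction, 29 lost and 8 gained a call, and 29 counts changed by over 1.5 times. The direction of Adrb1 against normal rats was kept throughout. Leaving out a library could not turn it, since all ischemic libraries lay above all normal ones.

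With library size as the only scaling, Adra1a at 4 h was -0.178 and the Adrb1 slope 0.00774 (log2). With DESeq2, 1 receptor was called at 1 h and 1 at 4 h, and 3 and 5 list genes were. Fits of only the 2 groups compared gave 4 receptors at an unadjusted p under 0.05 at 1 h and 1 between 4 h and 1 h. Dbh as covariate gave 1 receptor at that p at 1 h and turned Adra2a to -0.167 at 1 h and -0.448 at 4 h, and Adra2c to 0.131 between 4 h and 1 h. The neuron score gave 1 at 1 h and 2 at 4 h, with Adra2a at -0.563 and -0.873, Adra2b at -0.00325 at 4 h, and Adra2c at 0.194 and Adrb3 at 0.0397 between 4 h and 1 h. The smooth muscle score gave 1 at 1 h, 1 list gene called at 1 h and 1 at 4 h (Rgs1 in both), and Adra1a at -0.233 at 4 h. The adipocyte score, added after the data were seen, gave 1 call at 4 h (Adrb3), 2 at an unadjusted p there, Adra1a at 0.0908, Adra1d at 0.252 and Adra2a at -0.209 at 1 h, Adra1d at 0.293, Adra2a at -0.636 and Adra2b at -0.356 at 4 h, and Adrb3 at 0.426 between 4 h and 1 h. For the slope on Dbh, a pseudocount of 0.1 left 1 call (Adra2c), and no group term gave 4, with Adrb1 at 0.048. As shares of all 8 receptors, Adra1a differed by -17.5 points at 1 h and Adra1d by 11.0 between 4 h and 1 h. The causes were not tested.

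Correlations of same-numbered deviations ran from -0.651 to 0.66. They were all negative for replicate 1, all positive for replicate 2 (0.282 to 0.623) and mixed for replicate 3. Unequal tissue make-up also enters them, so they cannot settle whether the replicate numbers pair the libraries. A replicate block left 0 slope calls and 1 slope at an unadjusted p under 0.05, and turned Adrb1 to 0.0437 between 4 h and 1 h and its slope to 0.0992.

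Leaving out one library gave 1 to 4, 1 to 2 and 0 to 3 receptors at an unadjusted p under 0.05 at 1 h, at 4 h and between them, and 0 to 2 slope calls with 2 to 5 slopes at that p. Adrb3 at 1 h ran from -1.16 to 1.09. At 4 h Adra1a ran from -0.396 to 0.575, Adra1d from -0.558 to 0.363, Adra2a from -3.31 to 2.64, Adra2b from -0.539 to 0.719 and Adra2c from -0.157 to 2.21. Adrb1 between 4 h and 1 h ran from -0.345 to 0.353. Differences in share ran for Adra1a from -4.32 to 7.9, -0.0463 to 9.9 and -2.38 to 8.25 points at 1 h, at 4 h and between them, for Adra1d from -7.48 to 4.59, -9.16 to 0.892 and -7.89 to 2.87, and for Adra1b from -0.522 to 0.0282 at 1 h.

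The common biological coefficient of variation was 51.6% with 3 libraries a group, and counts under 10 limit Adra1b and, in normal rats, Adrb1.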
